A study of Mus musculus with 12 samples.

Results

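The genes described here make, break down and read cyclic AMP: the adenylyl cyclases (Adcy), the cyclic nucleotide phosphodiesterases (Pde) and the catalytic and regulatory subunits of protein kinase A (Prkac, Prkar). They were picked by a rule on the gene symbol, which was set with earlier results of these data known. The rule gave 38 of the 24890 genes in the expression tables: 10 cyclases, 22 phosphodiesterase genes, 2 catalytic and 4 regulatory kinase subunits. RNA had been sequenced from 4 groups of 3 libraries each: adipocytes of inguinal adipose tissue (IAT), adipocytes of epididymal adipose tissue (EAT), stromal vascular cells (SVCs) of IAT and SVCs of EAT. The mice were C57BL/6J males, 18 weeks old and fed normal chow, with no treatment and no genetic change. Each depot had been split into adipocytes and SVCs with collagenase I. IAT lies under the skin of the groin and EAT inside the abdomen beside the testis, and SVCs are a mixture of every cell in the tissue that does not float with the fat. The labels do not say whether the 3 libraries of a group came from separate mice, so p-values measure only the spread between these libraries.

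Cyclic AMP carries the signal of catecholamines into the fat cell. Beta-adrenergic receptors act through a stimulatory G protein on adenylyl cyclase. Cyclic AMP then releases the catalytic subunits of protein kinase A from their regulatory subunits, after which the kinase phosphorylates perilipin and hormone-sensitive lipase and starts lipolysis. Phosphodiesterases end the signal by hydrolysing cyclic AMP, cyclic GMP or both, and insulin restrains lipolysis in part by activating phosphodiesterase 3B.

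Values are FPKM, fragments per kilobase of transcript scaled to the mapped total of the library, so levels can be set side by side between genes. Of the 38 genes, 28 were at 1 FPKM or more in 3 or more of the 12 libraries. These were tested with limma on log2(FPKM + 1), with p-values adjusted over all 13175 genes tested and called under 0.05. A log2 difference is given with its standard error and is on that scale, which understates the change of a gene near or under 1 FPKM. Folds are ratios of the group means in FPKM. Estimated depth was 14180000 to 24660000 fragments a library, and libraries of a group correlated at 0.982 to 0.996. The defining marker of adipocytes, Adipoq, was at 3310 to 3710 FPKM in IAT adipocytes and 3890 to 4500 FPKM in EAT adipocytes, against 20.4 to 23.0 FPKM in IAT SVCs and 6.44 to 7.64 FPKM in EAT SVCs. Pdgfra, a marker of stromal progenitors, was at 0.952 to 1.11 and 0.502 to 0.914 FPKM in the same adipocyte groups, against 33.1 to 37.6 and 42.0 to 43.5 FPKM in IAT and EAT SVCs. The first EAT adipocyte library stood apart over all genes tested. It correlated at 0.9822 and 0.9852 with the other EAT adipocyte libraries, which correlated at 0.9945 with each other. In it 20 of the 28 tested members were lower than in both others, and 10 were under 70% of the mean of the others. The same counts were not made over all genes, so they are not read as a trait of the members.

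Most of the tested members differed between adipocytes and SVCs, as did most genes. In IAT, 7 of the 28 tested members were higher in adipocytes than in SVCs, 19 were lower and 2 were not called, and the median log2 difference was -0.66. Over all genes tested, 29.8% were called higher and 53.9% lower in IAT adipocytes, with a median of -0.34. In EAT, 8 members were higher in adipocytes, 19 were lower and 1 was not called, with a median of -0.80, while 31.1% of all genes were called higher and 52.7% lower, with a median of -0.31. The shares of members called in each direction were thus 25.0% and 67.9% in IAT and 28.6% and 67.9% in EAT, close to those of all genes for the higher calls and above them for the lower ones. Scaling each library to the median ratio removed the shift of all genes (5471 higher and 5463 lower in IAT, median -0.003337) and left the members at 8 higher and 16 lower in IAT and 8 and 18 in EAT, while 41.5% of all genes were higher and 41.5% lower in IAT and 41.8% and 41.5% in EAT. Quantile scaling gave 10 higher and 15 lower in IAT, against 42.6% and 40.4% of all genes. In bulk libraries, fewer cells of a type and less RNA per cell cannot be told apart.

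**Figure D1:**
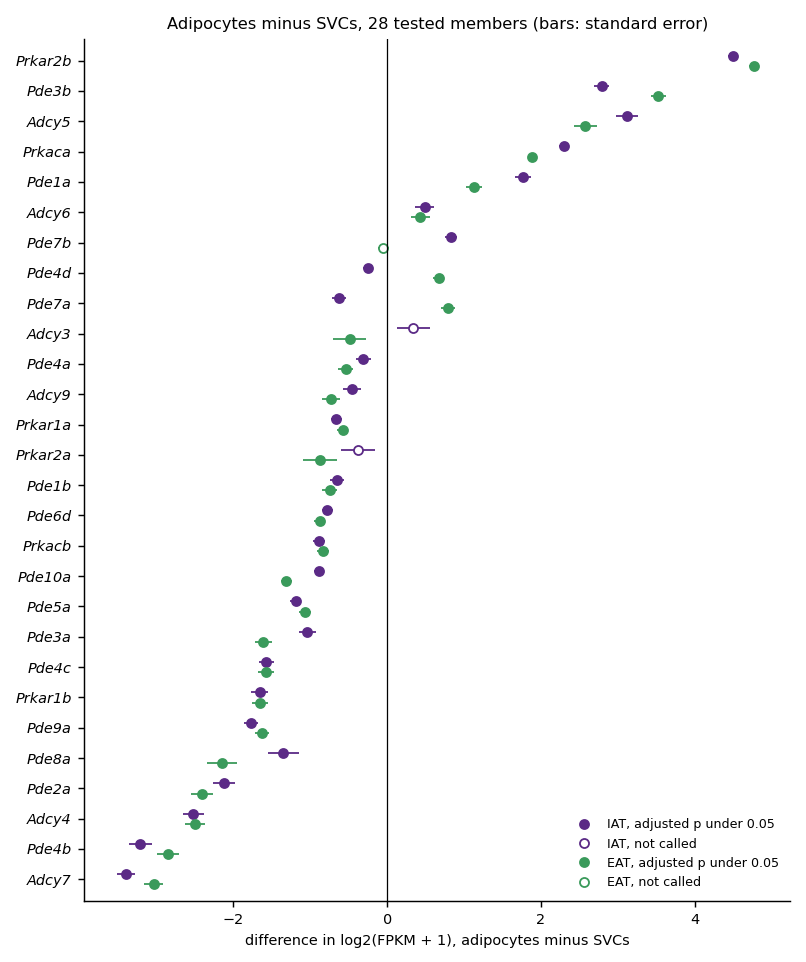
Difference in log2(FPKM + 1) between adipocytes and SVCs for each of the 28 tested members, in IAT (purple) and EAT (green), with the standard error as a bar; filled points have an adjusted p under 0.05. Prkar2b lies farthest to the right at 4.50 in IAT and 4.77 in EAT, Adcy7 farthest to the left at -3.40 and -3.04, and Pde4d and Pde7a have points on both sides of 0.

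Of the kinase subunits, Prkar2b and Prkaca were high in adipocytes and the rest were higher in SVCs or were not called in IAT. Prkar2b (chr12:31958479-32061279, mm10) encodes regulatory subunit RII-beta, a form that A-kinase anchoring proteins tether and the main regulatory subunit known in mouse fat. It had 191, 188 and 191 FPKM in IAT adipocytes and 182, 194 and 192 FPKM in EAT adipocytes. In IAT SVCs Prkar2b had 7.63, 7.195 and 7.58 FPKM, and in EAT SVCs 6.22, 5.79 and 5.89 FPKM. All adipocyte libraries were above all SVC libraries, 25.5-fold higher in IAT (log2 difference 4.50 ± 0.0592, adjusted p = 1.46e-14) and 31.7-fold higher in EAT (4.77 ± 0.0592, adjusted p = 5.44e-15). Prkaca (chr8:83972978-83996442), the alpha catalytic subunit, had 96.8, 100.3 and 99.8 FPKM in IAT adipocytes and 77.0, 80.1 and 81.2 FPKM in EAT adipocytes. In IAT SVCs Prkaca had 20.5, 19.2 and 18.3 FPKM, and in EAT SVCs 20.15, 21.1 and 20.8 FPKM. The 4 groups of Prkaca fell into 3 levels that did not overlap, IAT adipocytes, EAT adipocytes and all SVCs, with adipocytes 5.12-fold higher in IAT (2.30 ± 0.0622, adjusted p = 2.38e-12) and 3.84-fold higher in EAT (1.89 ± 0.0622, adjusted p = 1.39e-11).

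Prkacb, the beta catalytic subunit, ran the other way. It had 9.26, 10.01 and 9.95 FPKM in IAT adipocytes and 10.55, 12.7 and 11.3 FPKM in EAT adipocytes. In IAT SVCs Prkacb had 18.7, 17.7 and 20.3 FPKM, and in EAT SVCs 22.15, 20.3 and 21.7 FPKM. No adipocyte library reached the level of any SVC library, and Prkacb was 1.94-fold lower in IAT adipocytes (log2 difference -0.89 ± 0.0793) and 1.86-fold lower in EAT adipocytes (-0.84 ± 0.0793; adjusted p = 2.44e-07 and 4.2e-07). Prkaca therefore made up 91.0% of the summed catalytic FPKM in IAT adipocytes and 87.3% in EAT adipocytes, against 50.6% in IAT SVCs and 49.2% in EAT SVCs. The ratio of Prkaca to Prkacb was 10.2 ± 0.249 and 6.93 ± 0.536 in the adipocytes of IAT and EAT, against 1.03 ± 0.108 and 0.968 ± 0.0658 in their SVCs (SD, n = 3).

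Prkar1a, the broadly used regulatory subunit RI-alpha, had 54.2, 55.6 and 54.9 FPKM in IAT adipocytes and 71.9, 63.9 and 59.3 FPKM in EAT adipocytes. In IAT SVCs Prkar1a had 87.0, 85.9 and 89.0 FPKM, and in EAT SVCs 97.8, 94.3 and 99.96 FPKM. It was lower in adipocytes than in SVCs without overlap (-0.66 ± 0.0735 in IAT and -0.58 ± 0.0735 in EAT, adjusted p = 2.27e-06 and 7.97e-06). Prkar1b, regulatory subunit RI-beta, best known from brain, had 0.606, 0.288 and 0.346 FPKM in IAT adipocytes and 0.539, 0.357 and 0.621 FPKM in EAT adipocytes. In IAT SVCs Prkar1b had 3.91, 3.00 and 3.44 FPKM, and in EAT SVCs 3.47, 4.12 and 3.61 FPKM. It was low in adipocytes of both depots and 8.35-fold lower there than in SVCs in IAT and 7.38-fold lower in EAT (adjusted p = 8.09e-09 and 8.16e-09). Prkar2a, regulatory subunit RII-alpha, had 3.19, 3.99 and 4.55 FPKM in IAT adipocytes and 2.96, 7.17 and 6.635 FPKM in EAT adipocytes. In IAT SVCs Prkar2a had 5.48, 4.50 and 6.15 FPKM, and in EAT SVCs 11.04, 10.2 and 10.2 FPKM. It was lower in EAT adipocytes than in EAT SVCs (-0.87 ± 0.221, adjusted p = 0.00264), with the lowest value of the EAT adipocytes in their first library. Without that library the difference was -0.54 (adjusted p = 0.00114). Prkar2a was not called in IAT, where the ranges overlapped (-0.38 ± 0.221, adjusted p = 0.128; 0.00563 without the first EAT adipocyte library).

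The mix of subunits differed between the fractions. Prkar2b made up 76.2% and 72.7% of the summed regulatory FPKM in IAT and EAT adipocytes, against 7.21% and 5.08% in IAT and EAT SVCs. Prkar2b over Prkar1a was 3.46 ± 0.0673 in IAT adipocytes and 2.93 ± 0.362 in EAT adipocytes, against 0.0855 ± 0.00197 in IAT SVCs and 0.0613 ± 0.00232 in EAT SVCs. Summed catalytic FPKM was 108.7 ± 2.30 in IAT adipocytes and 91.0 ± 2.92 in EAT adipocytes, against 38.2 ± 1.23 in IAT SVCs and 42.1 ± 0.568 in EAT SVCs. Summed regulatory FPKM was 249 ± 1.44 and 260.4 ± 4.46 in IAT and EAT adipocytes, against 104 ± 2.80 and 117.5 ± 2.78 in IAT and EAT SVCs. Regulatory over catalytic FPKM was 2.29 ± 0.0486 in IAT adipocytes, 2.86 ± 0.0730 in EAT adipocytes, 2.71 ± 0.0526 in IAT SVCs and 2.79 ± 0.0288 in EAT SVCs (SD, n = 3 each). IAT adipocytes, with 2.25 to 2.35, lay below the other 3 groups, which ran from 2.65 to 2.94 together. Averaged over depots, the share of Prkaca was 39.3 percentage points higher in adipocytes and that of Prkar2b 68.3 points higher. Both gave p = 0.005 in the exact permutation test within depots (two-sided), the smallest p that it can give. Each was tested because it had the highest mean FPKM of its family over the same 12 libraries. Prkar2b had that rank (98.22 against 76.16 FPKM for Prkar1a) through its adipocyte values. The choice thus favoured a higher share in adipocytes, and the p is no further support for the difference.

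**Figure D2:**
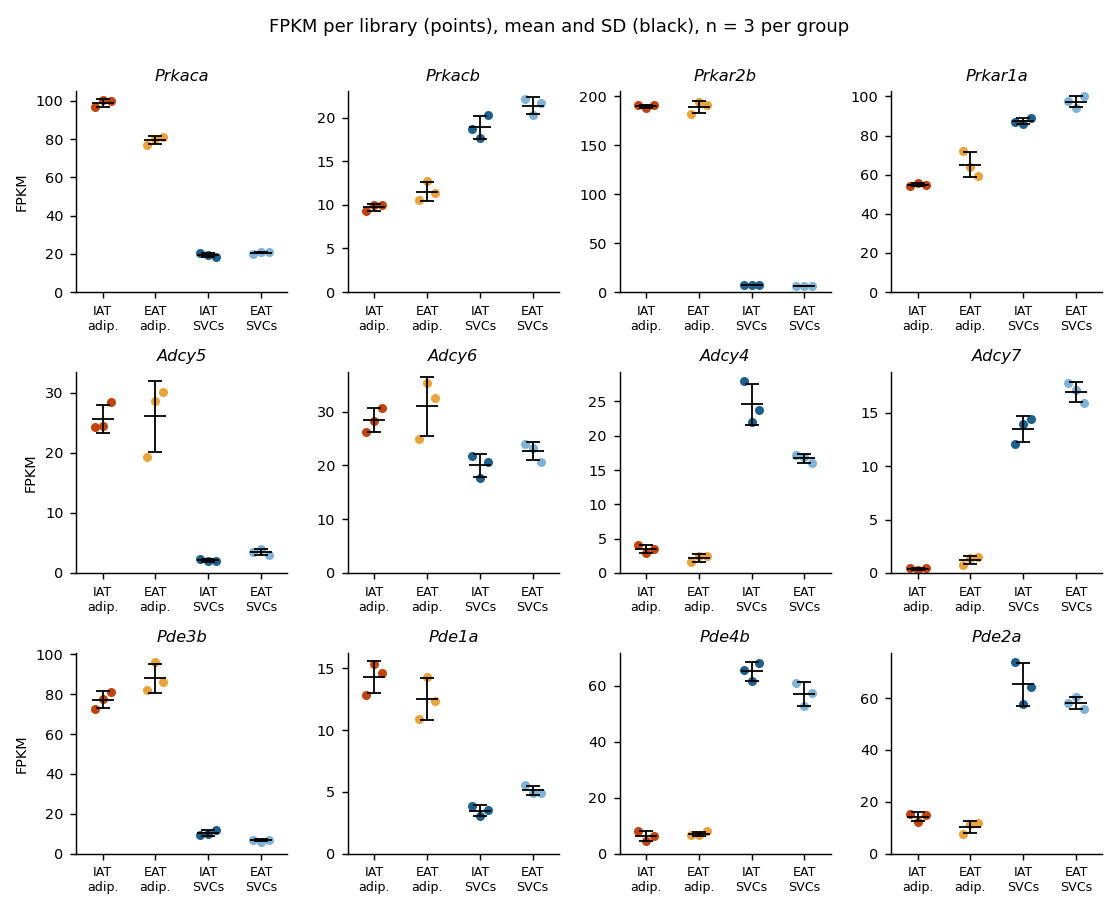
FPKM of 12 members in each library (points, 3 per group), with the group mean and SD in black; panels have their own axes, which start at 0. Prkaca, Prkar2b, Adcy5, Pde3b and Pde1a are high in both adipocyte groups, Prkacb, Prkar1a, Adcy4, Adcy7, Pde4b and Pde2a in both SVC groups, and the first EAT adipocyte library is the lowest of its group in every panel but that of Prkar1a.

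The start regions of the kinase genes Prkar2b, Prkaca and Prkar1a are shown. The cyclic AMP response element, the palindrome TGACGTCA that CREB factors bind, is a sequence through which the pathway can act on its own genes. Each line gives 250 bases before and 50 after a transcript start from RefSeq (GRCm38.p6), 5′ to 3′ on the gene's strand; capitals mark the palindrome or its core TGACG, which reads CGTCA where it lies on the other strand.
Prkar2b, chr12:32061228-32061527, - strand: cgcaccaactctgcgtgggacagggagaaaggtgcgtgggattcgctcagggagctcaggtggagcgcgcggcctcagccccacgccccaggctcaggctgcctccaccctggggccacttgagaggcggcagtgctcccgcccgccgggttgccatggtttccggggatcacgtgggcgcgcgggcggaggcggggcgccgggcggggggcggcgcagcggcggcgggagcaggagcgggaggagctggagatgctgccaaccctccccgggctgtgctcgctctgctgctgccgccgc
Prkaca, chr8:83972728-83973027, + strand: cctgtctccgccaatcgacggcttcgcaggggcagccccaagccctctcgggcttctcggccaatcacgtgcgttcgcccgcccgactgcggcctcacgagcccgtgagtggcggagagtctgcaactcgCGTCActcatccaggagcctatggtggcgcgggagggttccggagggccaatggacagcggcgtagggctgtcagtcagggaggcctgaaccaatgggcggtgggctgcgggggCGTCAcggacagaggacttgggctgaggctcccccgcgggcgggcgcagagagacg
Prkar1a, chr11:109650699-109650998, + strand: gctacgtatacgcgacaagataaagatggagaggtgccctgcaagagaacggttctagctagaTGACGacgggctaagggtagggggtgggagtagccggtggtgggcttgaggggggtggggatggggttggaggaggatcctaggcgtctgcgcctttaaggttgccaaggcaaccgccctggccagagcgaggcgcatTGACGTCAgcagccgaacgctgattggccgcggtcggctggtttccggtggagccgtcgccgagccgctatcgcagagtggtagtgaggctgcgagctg
The windows of Prkar2b and Prkaca hold no palindrome, and that of Prkaca holds the core in 2 places. Prkar1a holds the palindrome at position -49, counted from 0 at the start, and the core in 1 further place. Of the kinase genes not shown, Prkacb, Prkar1b and Prkar2a also had the core in a window, and none had the palindrome. RefSeq windows matched 30 of the 38 members, with 67 windows in all. The palindrome lay in 2 of these (2.99%), overlapping windows of Prkar1a, against 1.79% of the 32851 windows of all genes, and the core, searched on both strands and including the palindromes, lay in 22.4% of the members' windows against 20.8% of all. A direct repeat of the kind PPAR-gamma binds lay in 0 of the 67 and in 0.0396% of all windows. A match describes the letters and does not show that a factor binds.

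The summed FPKM of the cyclases lay in overlapping ranges in all groups, while its makeup differed. The overlap between fractions holds for FPKM, where all genes had a median of -0.34 in IAT and -0.31 in EAT adipocytes against SVCs. The sums were not compared under scalings that remove this shift. The sum was 61.1 to 70.9 in IAT adipocytes and 49.7 to 75.0 in EAT adipocytes, against 62.3 to 71.8 in IAT SVCs and 64.4 to 71.6 in EAT SVCs. Adcy5 (chr16:35155636-35304549), one of the closely related pair of calcium-inhibited cyclases with Adcy6, had 24.3, 24.4 and 28.4 FPKM in IAT adipocytes and 19.4, 28.7 and 30.2 FPKM in EAT adipocytes. In IAT SVCs Adcy5 had 2.27, 2.06 and 1.90 FPKM, and in EAT SVCs 3.48, 4.01 and 2.94 FPKM. It was 12.4-fold higher in IAT adipocytes than in IAT SVCs (3.12 ± 0.146, adjusted p = 3.56e-10) and 7.5-fold higher in EAT adipocytes than in EAT SVCs (2.58 ± 0.146, adjusted p = 2.37e-09), with no overlap. Adcy6 had 26.2, 28.3 and 30.6 FPKM in IAT adipocytes and 24.9, 35.4 and 32.55 FPKM in EAT adipocytes. In IAT SVCs Adcy6 had 21.8, 17.55 and 20.6 FPKM, and in EAT SVCs 23.9, 23.2 and 20.7 FPKM. Every adipocyte library was above every SVC library, by less than for Adcy5, and adipocytes were 1.42-fold higher in IAT and 1.37-fold higher in EAT (0.49 ± 0.123 and 0.43 ± 0.123, adjusted p = 0.00238 and 0.00598). Adcy6 had the largest share of the cyclase sum on average over the groups, 43.7% in IAT adipocytes and 47.4% in EAT adipocytes, against 29.5% in IAT SVCs and 32.7% in EAT SVCs. That share was 14.5 percentage points higher in adipocytes than in SVCs (exact permutation test within depots, two-sided p = 0.005, the smallest it can give).

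Adcy4 and Adcy7, a pair of cyclases that G protein beta-gamma subunits stimulate, had their high values in SVCs, with 36.3% and 24.2% of the cyclase sum for Adcy4 and 20.1% and 24.6% for Adcy7 in IAT and EAT SVCs. Adcy4 had 4.085, 2.88 and 3.445 FPKM in IAT adipocytes and 1.53, 2.51 and 2.47 FPKM in EAT adipocytes. In IAT SVCs Adcy4 had 27.9, 22.1 and 23.7 FPKM, and in EAT SVCs 17.15, 16.9 and 16.0 FPKM. Every SVC library was far above every adipocyte library, and Adcy4 was 7.08-fold lower in IAT adipocytes and 7.69-fold lower in EAT adipocytes (-2.52 ± 0.136 and -2.50 ± 0.136, adjusted p = 1.5e-09 and 1.65e-09). Adcy7 had 0.419, 0.245 and 0.451 FPKM in IAT adipocytes and 0.773, 1.37 and 1.48 FPKM in EAT adipocytes. In IAT SVCs Adcy7 had 12.1, 13.95 and 14.45 FPKM, and in EAT SVCs 17.8, 17.1 and 15.9 FPKM. It was 36.4-fold lower in IAT adipocytes and 14.1-fold lower in EAT adipocytes (-3.40 ± 0.121 and -3.04 ± 0.121, adjusted p = 2.55e-11 and 7.67e-11). The mean of Adcy4 in adipocytes was 14.1% of that in SVCs in IAT and 13.0% in EAT, and that of Adcy7 2.75% and 7.11%. All 8 endothelial markers were found, and their median share in adipocytes against SVCs was 19.9% in IAT and 17.5% in EAT. Their sums were 182 to 249 and 167 to 200 FPKM in IAT and EAT adipocytes against 936 to 1150 and 880 to 930 FPKM in IAT and EAT SVCs. For the 7 macrophage markers in the tables the median share was 3.87% in IAT and 12.6% in EAT. Their sums were 61.8 to 92.2 and 379 to 465 FPKM in IAT and EAT adipocytes, against 1760 to 1880 and 3430 to 3610 FPKM in IAT and EAT SVCs. The part of these cells in the adipocyte values of Adcy4 and Adcy7 was not tested.

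Adcy3, a calmodulin-stimulated cyclase known from odour sensing, had 4.33, 4.95 and 5.76 FPKM in IAT adipocytes and 1.51, 4.335 and 3.49 FPKM in EAT adipocytes. In IAT SVCs Adcy3 had 3.81, 3.32 and 4.09 FPKM, and in EAT SVCs 4.52, 4.87 and 4.12 FPKM. It was not called in IAT, although the 2 groups did not overlap (0.34 ± 0.211, adjusted p = 0.151; 0.34 and 0.00708 without the first EAT adipocyte library, 0.69 and 0.00744 under median-of-ratios scaling). It was lower in EAT adipocytes than in EAT SVCs with overlapping ranges (-0.49 ± 0.211, adjusted p = 0.0474). Without the first EAT adipocyte library that difference was -0.17 and lost its call (adjusted p = 0.189). The call was also lost without any single IAT adipocyte or SVC library of either depot (-0.54 to -0.44, adjusted p = 0.0523 to 0.122), and the difference was -0.18 under median-of-ratios and -0.02 under quantile scaling. Of the exon bases of Adcy3, 22.1% are shared with Cenpo on the other strand (GENCODE vM21). Adcy9 was at 1.497 to 1.99 FPKM in IAT adipocytes and 1.445 to 2.54 FPKM in EAT adipocytes, against 2.46 to 2.85 FPKM in IAT SVCs and 3.98 to 4.04 FPKM in EAT SVCs. It was lower in adipocytes in both depots (-0.46 ± 0.118 and -0.73 ± 0.118, adjusted p = 0.00292 and 7.13e-05), though in IAT the difference was -0.17 and not called under median-of-ratios scaling and turned to 0.11 under quantile scaling.

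**Figure D3:**
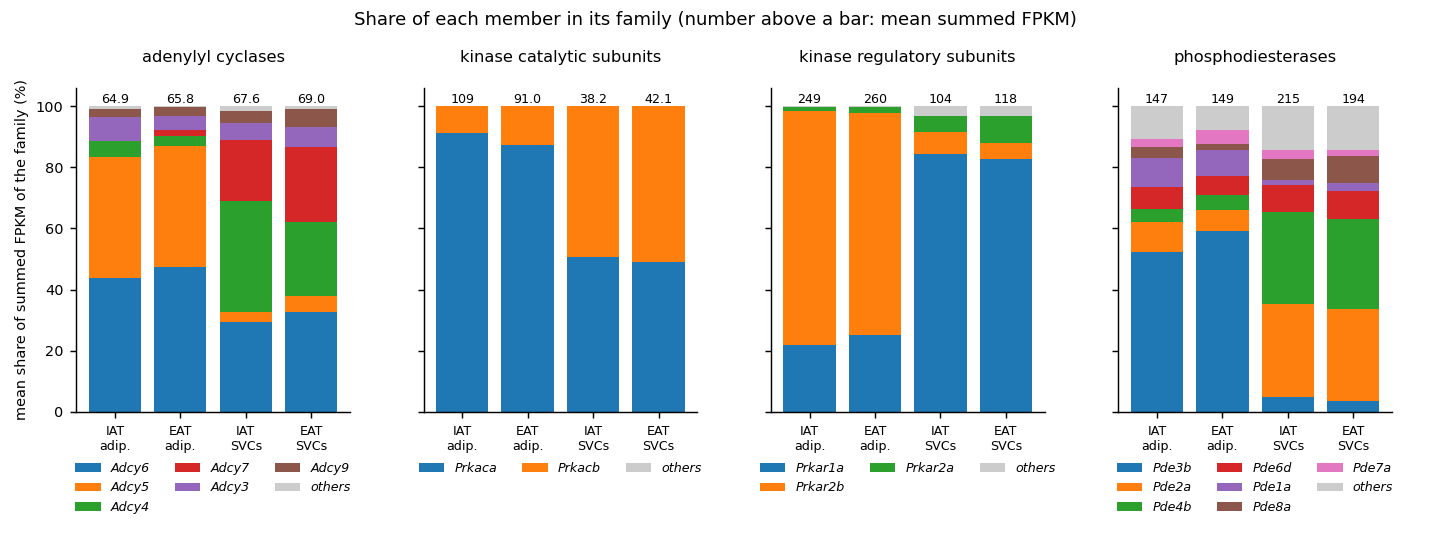
Mean share of each member in the summed FPKM of its family, for the 4 groups of 3 libraries each; the number above a bar is the mean summed FPKM, and grey holds the members that stay under 4% in every group. Adipocyte bars are led by Adcy6 and Adcy5, Prkaca, Prkar2b and Pde3b, SVC bars by Adcy4, Adcy6 and Adcy7, both catalytic subunits, Prkar1a, Pde2a and Pde4b, while the cyclase sums lie between 64.9 and 69.0. Sums are in FPKM and were not compared under other scalings.

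Among the phosphodiesterases, Pde3b and Pde1a were higher in adipocytes of both depots and 11 of the 16 tested genes were lower in both. By depot, 81.2% of the 16 were lower in IAT adipocytes and 68.8% in EAT adipocytes, against 53.9% and 52.7% of all genes. The share of all genes lower in both depots was not counted. Pde3b (chr7:114415254-114537937), the enzyme through which insulin lowers cyclic AMP, had 72.7, 77.7 and 81.2 FPKM in IAT adipocytes and 81.9, 96.2 and 86.2 FPKM in EAT adipocytes. In IAT SVCs Pde3b had 9.31, 9.97 and 11.85 FPKM, and in EAT SVCs 7.05, 6.07 and 7.02 FPKM. The adipocyte values were 7.44-fold higher in IAT (2.79 ± 0.0957, adjusted p = 1.9e-11) and 13.1-fold higher in EAT (3.53 ± 0.0957, adjusted p = 2.52e-12), far outside the SVC range. Pde3b made up 52.4% and 59.2% of the summed phosphodiesterase FPKM in IAT and EAT adipocytes, against 4.84% and 3.47% in IAT and EAT SVCs, a difference of 51.7 percentage points (exact permutation test within depots, two-sided p = 0.005, the smallest it can give). Pde3b was tested because it had the highest mean FPKM of the family over the same libraries, a rank it had through its adipocyte values. The p is thus no further support for the difference. Pde1a, a calmodulin-activated enzyme that acts on both nucleotides, had 12.8, 15.4 and 14.65 FPKM in IAT adipocytes and 10.9, 14.3 and 12.4 FPKM in EAT adipocytes. In IAT SVCs Pde1a had 3.85, 3.02 and 3.56 FPKM, and in EAT SVCs 5.565, 4.94 and 4.90 FPKM. It too was higher in every adipocyte library than in any SVC library (1.77 ± 0.107 in IAT and 1.13 ± 0.107 in EAT, adjusted p = 4.6e-09 and 4.32e-07).

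Pde2a and Pde4b led in SVCs, with 30.3% and 30.1% of the phosphodiesterase sum for Pde2a and 30.3% and 29.4% for Pde4b in IAT and EAT SVCs. Pde4b, of the cyclic AMP-specific and rolipram-sensitive PDE4 family, had 7.99, 4.395 and 6.40 FPKM in IAT adipocytes and 6.525, 6.64 and 7.95 FPKM in EAT adipocytes. In IAT SVCs Pde4b had 65.4, 61.5 and 68.2 FPKM, and in EAT SVCs 61.0, 52.7 and 57.2 FPKM. It was 10.4-fold lower in IAT adipocytes and 8.09-fold lower in EAT adipocytes (-3.21 ± 0.148 and -2.85 ± 0.148, adjusted p = 2.95e-10 and 9.72e-10). Pde2a, which cyclic GMP stimulates to hydrolyse cyclic AMP, had 15.5, 12.25 and 14.98 FPKM in IAT adipocytes and 7.74, 11.6 and 11.7 FPKM in EAT adipocytes. In IAT SVCs Pde2a had 74.1, 57.7 and 64.3 FPKM, and in EAT SVCs 58.25, 60.6 and 56.0 FPKM. It was 4.59-fold lower in IAT adipocytes and 5.63-fold lower in EAT adipocytes (-2.12 ± 0.142 and -2.41 ± 0.142, adjusted p = 1.3e-08 and 3.58e-09). Its adipocyte level was 21.8% of the SVC level in IAT and 17.8% in EAT, near the 19.9% and 17.5% of the endothelial markers; their part in it was not tested. Of its exon bases, 64.3% are shared with a read-through model, Gm45837, on the same strand.

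Pde8a, a cyclic AMP-specific enzyme of high affinity, had 5.58, 4.76 and 5.84 FPKM in IAT adipocytes and 1.75, 4.40 and 3.63 FPKM in EAT adipocytes. In IAT SVCs Pde8a had 17, 12.6 and 16.4 FPKM, and in EAT SVCs 18.0, 17.85 and 15.7 FPKM. It was lower in adipocytes (-1.35 ± 0.2 in IAT and -2.15 ± 0.2 in EAT, adjusted p = 3.38e-05 and 3.65e-07), with its lowest value in the first EAT adipocyte library. Pde6d, which despite its name is no enzyme but a carrier of prenylated proteins, had 11.04, 10.1 and 9.89 FPKM in IAT adipocytes and 9.68, 9.91 and 8.585 FPKM in EAT adipocytes. In IAT SVCs Pde6d had 19.0, 18.7 and 17.8 FPKM, and in EAT SVCs 17.9, 18.6 and 17.6 FPKM. Its groups did not overlap between the fractions, and it was 1.79-fold lower in IAT adipocytes and 1.92-fold lower in EAT adipocytes (adjusted p = 3.02e-07 and 9.32e-08). Pde1b, the other calmodulin-activated enzyme tested, had 3.97, 4.14 and 4.29 FPKM in IAT adipocytes and 3.24, 4.04 and 4.66 FPKM in EAT adipocytes. In IAT SVCs Pde1b had 7.34, 6.63 and 7.20 FPKM, and in EAT SVCs 7.20, 7.53 and 7.16 FPKM. It was lower in adipocytes, opposite to Pde1a, with log2 differences of -0.65 in IAT and -0.75 in EAT (adjusted p = 2.76e-05 and 7.38e-06).

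Of the enzymes that act on cyclic GMP alone, the 2 tested, Pde9a and Pde5a, were lower in adipocytes. Pde9a had 1.215, 0.8505 and 1.03 FPKM in IAT adipocytes and 0.561, 0.526 and 0.517 FPKM in EAT adipocytes, against 6.71, 5.35 and 5.78 FPKM in IAT SVCs and 3.73, 3.97 and 3.55 FPKM in EAT SVCs. Pde5a, the target of sildenafil, had 0.196, 0.0930 and 0.167 FPKM in IAT adipocytes and 0.196, 0.355 and 0.187 FPKM in EAT adipocytes, against 1.58, 1.56 and 1.74 FPKM in IAT SVCs and 1.72, 1.42 and 1.735 FPKM in EAT SVCs. For both genes every adipocyte library lay below every SVC library, with log2 differences of -1.77 ± 0.0863 in IAT and -1.63 ± 0.0863 in EAT for Pde9a and of -1.19 ± 0.0731 and -1.07 ± 0.0731 for Pde5a (adjusted p at most 1.53e-08).

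A further group of phosphodiesterases was low everywhere and higher in SVCs. Pde3a, the sister of Pde3b known from heart, platelets and smooth muscle, had 0.0499, 0.0398 and 0.0526 FPKM in IAT adipocytes and 0.00820, 0.132 and 0.147 FPKM in EAT adipocytes, against 1.15, 0.810 and 1.56 FPKM in IAT SVCs and 2.51, 2.575 and 2.00 FPKM in EAT SVCs. Pde10a, which acts on both nucleotides and is best known from the striatum, had 0.176, 0.0935 and 0.0935 FPKM in IAT adipocytes and 0.114, 0.111 and 0.0953 FPKM in EAT adipocytes, against 1.22, 0.888 and 1.15 FPKM in IAT SVCs and 1.84, 1.62 and 1.74 FPKM in EAT SVCs. Pde4c had 0.373, 0.170 and 0.375 FPKM in IAT adipocytes and 0.438, 0.280 and 0.638 FPKM in EAT adipocytes, against 3.345, 2.515 and 2.79 FPKM in IAT SVCs and 3.25, 3.33 and 3.36 FPKM in EAT SVCs. In all 3 genes the adipocyte and SVC libraries did not overlap, and the mean was 24.8-fold lower in IAT adipocytes and 24.6-fold lower in EAT adipocytes for Pde3a, 8.97-fold and 16.3-fold for Pde10a, and 9.42-fold and 7.34-fold for Pde4c (adjusted p at most 1.43e-06). Pde4a was closer between the fractions, with 1.84 to 2.06 FPKM in IAT adipocytes and 1.83 to 2.70 FPKM in EAT adipocytes, against 2.47 to 2.81 FPKM in IAT SVCs and 3.70 to 4.05 FPKM in EAT SVCs. It was called lower in both (-0.31 ± 0.0946 and -0.54 ± 0.0946, adjusted p = 0.00848 and 0.000155). In IAT the difference was -0.01 under median-of-ratios scaling and turned to 0.25 under quantile scaling (adjusted p = 0.904 and 0.0082), and in EAT it was -0.04 under quantile scaling (adjusted p = 0.611).

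Differences between the depots were fewer and smaller. In adipocytes, 8 of 28 members were higher in IAT than in EAT, 4 were lower and 16 were not called, with a median of -0.03, while 10.3% of all genes were called higher and 27.3% lower, with a median of -0.10. In SVCs, 7 were higher in IAT, 7 lower and 14 not called, with a median of -0.12, while 14% of all genes were called higher and 26.2% lower, with a median of -0.06. The members' 28.6% higher and 14.3% lower in adipocytes and 25.0% and 25.0% in SVCs thus lay above the background for the higher calls in both fractions. In adipocytes 5 members were called higher with values rescaled to TPM, against 9.09% of all genes, and 4 with only the compared groups in the fit, against 8.32%. Median-of-ratios and quantile scaling each gave 10 higher and 2 lower in adipocytes, where 16.1% and 15.3% of all genes were higher and 16.7% and 16.2% lower. Rescaling to TPM gave 4 higher and 8 lower in SVCs, against 9.75% and 30.5% of all genes. Without the first EAT adipocyte library 8 members were lower in IAT adipocytes, a smaller share than the 34.7% of all genes. Without the first IAT adipocyte library 4 were higher and 2 lower, against 7.4% and 20.6% of all genes. Without the second 2 were lower, against 21.9%, and without the third 5 were higher and 2 lower, against 7.79% and 22.1%. Only 1 member in adipocytes, Pde7b, and 1 in SVCs, Pde4d, passed a difference of at least 1 on the log2(FPKM + 1) scale. By the ratio of means in FPKM, 2 other called members, both low, also differed at least 2-fold. Adcy7 was 3.25-fold lower in IAT adipocytes and Pde3a 2.01-fold lower in IAT SVCs.

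Adcy4, Pde4d, Pde7b and Pde9a were higher in IAT in both fractions, and no member was lower in IAT in both. The share of all genes called the same way in both fractions was not counted, so this is not read as a trait of the members. Pde4d (chr13:108654177-109955969), another member of the PDE4 family, had 4.22, 4.365 and 4.65 FPKM in IAT adipocytes and 2.43, 2.61 and 2.84 FPKM in EAT adipocytes. In IAT SVCs Pde4d had 5.335, 5.40 and 5.56 FPKM, and in EAT SVCs 1.39, 1.17 and 1.28 FPKM. It was 1.68-fold higher in IAT adipocytes than in EAT adipocytes (0.58 ± 0.0691, adjusted p = 3.78e-05) and 4.24-fold higher in IAT SVCs than in EAT SVCs (1.5 ± 0.0691, adjusted p = 3.16e-09), with no overlap between depots in either fraction. Pde7b (chr10:20398004-20725068), a cyclic AMP-specific enzyme, had 3.00, 3.33 and 3.85 FPKM in IAT adipocytes and 0.894, 1.12 and 0.996 FPKM in EAT adipocytes. In IAT SVCs Pde7b had 1.46, 1.43 and 1.51 FPKM, and in EAT SVCs 1.07, 1.035 and 1.1 FPKM. The IAT adipocytes were above all other libraries, 3.38-fold higher than EAT adipocytes (1.13 ± 0.0749, adjusted p = 2.11e-07), while the SVC groups differed 1.37-fold (0.25 ± 0.0749, adjusted p = 0.0171). Between the fractions Pde7b was higher in IAT adipocytes (0.83 ± 0.0749, adjusted p = 2.76e-07) and was not called in EAT (-0.05 ± 0.0749, adjusted p = 0.562), though it was higher in EAT adipocytes under quantile scaling (0.61, adjusted p = 1.81e-06). Pde9a was 1.93-fold higher in IAT adipocytes (0.40 ± 0.0863, adjusted p = 0.00318) and 1.59-fold higher in IAT SVCs (0.54 ± 0.0863, adjusted p = 0.00026). Adcy4 was 1.6-fold higher in IAT adipocytes (0.50 ± 0.136, adjusted p = 0.0119) and 1.47-fold higher in IAT SVCs (0.53 ± 0.136, adjusted p = 0.00805). Adcy4 lost its call in adipocytes without the first IAT adipocyte library (0.41, adjusted p = 0.059) and in SVCs after rescaling to TPM (0.44, adjusted p = 0.0912). The SVC difference of Pde7b lost its call after rescaling to TPM (0.25, adjusted p = 0.129) and without the third IAT SVC, the first EAT SVC or the second EAT SVC library (0.24 to 0.25, adjusted p = 0.0516 to 0.053). Markers of some other cells also differed between the depots in the same direction, and those of others in the opposite one. All 8 Schwann cell and nerve markers were found, and their sums were 39.9 to 49.3 FPKM in IAT adipocytes and 9.54 to 12.2 FPKM in EAT adipocytes, and 147 to 192 FPKM in IAT SVCs and 14.4 to 14.9 FPKM in EAT SVCs. Summed T and B lymphocyte markers were 237 to 369 FPKM in IAT SVCs and 49.9 to 55.2 FPKM in EAT SVCs. Macrophage sums went the other way, at 61.8 to 92.2 FPKM in IAT adipocytes and 379 to 465 FPKM in EAT adipocytes. They were 1760 to 1880 FPKM in IAT SVCs and 3430 to 3610 FPKM in EAT SVCs. Mesothelial sums were also lower in IAT SVCs, at 2.65 to 3.33 FPKM against 453 to 518 FPKM in EAT SVCs. Endothelial sums were 936 to 1150 FPKM in IAT SVCs and 880 to 930 FPKM in EAT SVCs, and overlapped in adipocytes. The part of these cells in the depot differences was not tested.

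Pde7a, the other PDE7 gene and the form known from T cells, went opposite ways in the 2 fractions. Pde7a (chr3:19223109-19311322) had 3.35, 3.88 and 3.83 FPKM in IAT adipocytes and 6.70, 6.43 and 6.61 FPKM in EAT adipocytes. In IAT SVCs Pde7a had 5.25, 6.91 and 6.73 FPKM, and in EAT SVCs 3.45, 3.28 and 3.41 FPKM. EAT adipocytes and IAT SVCs were the high groups, and neither overlapped with IAT adipocytes or EAT SVCs. Pde7a was 1.78-fold lower in IAT adipocytes than in EAT adipocytes (-0.70 ± 0.0902, adjusted p = 7.46e-05) and 1.86-fold higher in IAT SVCs than in EAT SVCs (0.73 ± 0.0902, adjusted p = 3.28e-05). The same values gave it 1.71-fold lower in adipocytes than in SVCs in IAT (-0.63 ± 0.0902, adjusted p = 2.38e-05) and 1.95-fold higher in EAT (0.79 ± 0.0902, adjusted p = 2.79e-06). Its difference between the fractions of IAT was -0.15 and not called under quantile scaling (adjusted p = 0.133). Summed T and B lymphocyte markers, all 8 of them found, were 5.40 to 5.93 FPKM in IAT adipocytes and 1.19 to 1.78 FPKM in EAT adipocytes, against 237 to 369 FPKM in IAT SVCs and 49.9 to 55.2 FPKM in EAT SVCs. They moved with the SVC values of Pde7a and not with its adipocyte values, and their part in either was not tested. Pde4d showed the milder form of the same pattern between the fractions, lower in IAT adipocytes than in IAT SVCs (-0.25 ± 0.0691, adjusted p = 0.00467), and higher in EAT adipocytes than in EAT SVCs (0.67 ± 0.0691, adjusted p = 1.06e-06). In IAT its sign turned to 0.11 under median-of-ratios scaling and 0.22 under quantile scaling.

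**Figure D4:**
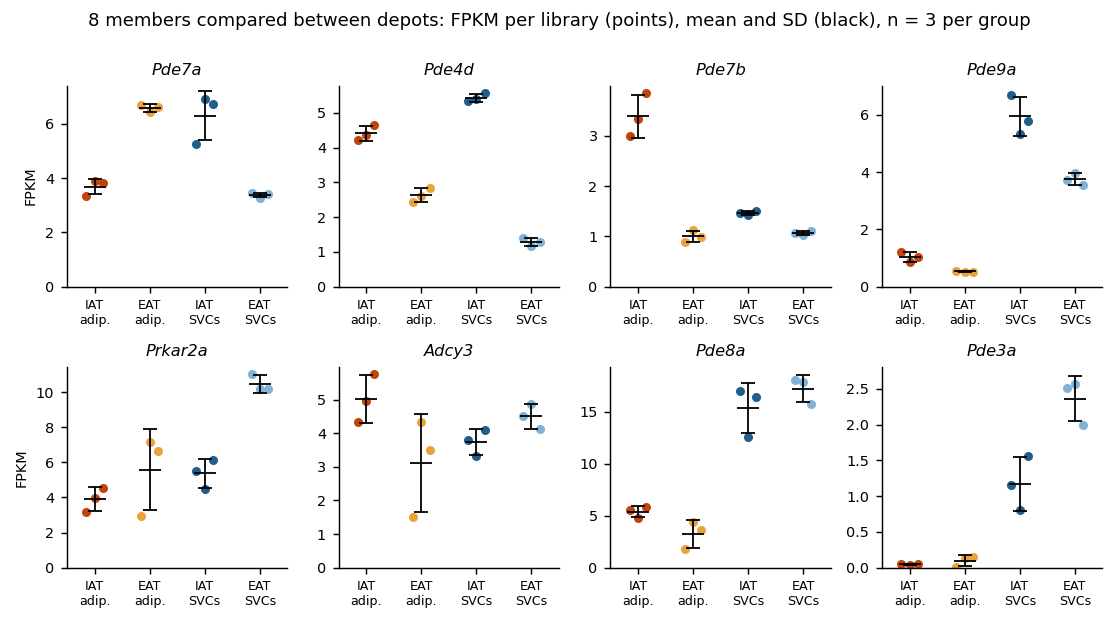
FPKM of 8 members in each library (points, 3 per group), with the group mean and SD in black; panels have their own axes, which start at 0. Pde7a is high in EAT adipocytes and IAT SVCs, Pde4d in both IAT groups, and Pde7b is highest in IAT adipocytes. The first EAT adipocyte library is the lowest of its group in every panel but those of Pde7a and Pde9a.

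In adipocytes alone, Prkaca was 1.25-fold higher in IAT than in EAT (0.31 ± 0.0622, adjusted p = 0.00191), with Prkacb and Prkar1a 1.18-fold lower each (-0.22 ± 0.0793 and -0.24 ± 0.0735, adjusted p = 0.0463 and 0.0248). The Prkacb and Prkar1a differences were -0.09 each and not called under median-of-ratios scaling (adjusted p = 0.368 and 0.424), and both lost their call without any single IAT adipocyte library (adjusted p = 0.0766 to 0.153 for Prkacb and 0.0573 to 0.0765 for Prkar1a). Prkacb also lost it without the second or the third EAT adipocyte library (-0.15 and -0.23, adjusted p = 0.17 and 0.0854), the first IAT SVC library (adjusted p = 0.0604) or the first or the third EAT SVC library (adjusted p = 0.0607 and 0.0617). Adcy7 was 3.25-fold lower in IAT adipocytes (-0.67 ± 0.121, adjusted p = 0.000944); summed macrophage markers were 61.8 to 92.2 FPKM in IAT adipocytes and 379 to 465 FPKM in EAT adipocytes, and their part in it was not tested. Adcy3, Pde2a and Pde8a were called higher in IAT adipocytes (0.61 ± 0.211, 0.44 ± 0.142 and 0.64 ± 0.2, adjusted p = 0.0383, 0.0282 and 0.0248). Without the first EAT adipocyte library Adcy3 was at 0.29 (adjusted p = 0.0511) Pde2a at 0.26 (adjusted p = 0.0568) and Pde8a at 0.35 (adjusted p = 0.032). Without the first or the third IAT adipocyte library Pde2a was at 0.38 and 0.40 (adjusted p = 0.104 and 0.0877) and Pde8a at 0.61 and 0.59 (adjusted p = 0.0716 and 0.0767). Adcy3 also lost its call without any single IAT adipocyte library (0.52 to 0.69, adjusted p = 0.0516 to 0.123), the first IAT SVC library (adjusted p = 0.0508) or the first or the second EAT SVC library (adjusted p = 0.0505 each).

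In SVCs alone, Pde3b and Prkar2b were higher in IAT than in EAT (1.55-fold and 1.25-fold; 0.56 ± 0.0957 and 0.28 ± 0.0592, adjusted p = 0.000484 and 0.00213). After rescaling to TPM Prkar2b was at 0.20 and not called (adjusted p = 0.113). Adipoq was also higher in IAT SVCs, with the 20.4 to 23.0 FPKM given above against 6.44 to 7.64 FPKM in EAT SVCs, and the part of remaining adipocytes in both differences was not tested. Prkar2a, Pde3a, Adcy5, Pde10a, Pde1a, Adcy9 and Pde4a were lower in IAT SVCs. The largest fold was 2.01-fold for Pde3a (-0.64 ± 0.111, adjusted p = 0.000518), and Prkar2a was 1.95-fold lower (-0.85 ± 0.221, adjusted p = 0.00798). The other 5 had log2 differences of -0.54 to -0.39, and Adcy5 lost its call without the second EAT SVC library (-0.45, adjusted p = 0.0511). Summed mesothelial markers were 2.65 to 3.33 FPKM in IAT SVCs and 453 to 518 FPKM in EAT SVCs, and summed macrophage markers 1760 to 1880 FPKM in IAT SVCs and 3430 to 3610 FPKM in EAT SVCs; their part in these differences was not tested.

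**Figure D5:**
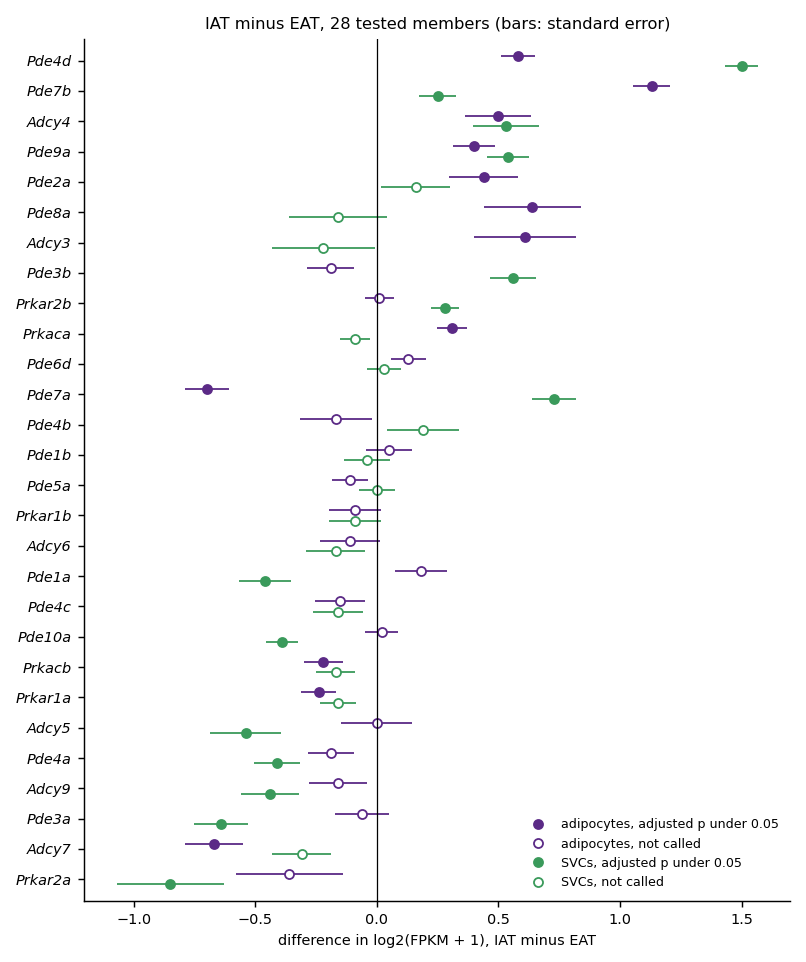
Difference in log2(FPKM + 1) between IAT and EAT for each of the 28 tested members, in adipocytes (purple) and SVCs (green), with the standard error as a bar; filled points have an adjusted p under 0.05. Pde4d in SVCs (1.5) and Pde7b in adipocytes (1.13) are the points past 1, and Pde7a is called on both sides of 0.

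The depot difference itself was tested against the fraction, as the signed difference (IAT minus EAT) in adipocytes minus that in SVCs. It was called above 0 for 6 members and below 0 for 4, with 18 not called and a median of 0.08, while 14.7% of all genes were above 0 and 17.8% below, with a median of -0.04. Median-of-ratios scaling gave 8 and 3, against 15% and 15.7% of all genes, and a filter on a mean of at least 1 FPKM gave 3 and 4 of 25 tested, against 12.9% and 17.2%. The sign does not say in which fraction the depots lay farther apart: Pde10a, Pde1a and Pde3a, all above 0, had depot differences of 0.02, 0.18 and -0.06 in adipocytes and -0.39, -0.46 and -0.64 in SVCs. For Pde3a, low in adipocytes, the ratio of IAT to EAT means was 0.495 in adipocytes and 0.497 in SVCs, and the call was lost with a pseudocount of 0.1 (0.67, adjusted p = 0.267). The adipocyte ratio rested on an estimated 5 to 6 fragments a library in IAT and 1 to 14 in EAT, and those groups overlapped. The value farthest from 0 was that of Pde7a (-1.42 ± 0.128, adjusted p = 3.22e-06), followed by Pde4d (-0.92 ± 0.0977, adjusted p = 1.45e-05) and Pde7b (0.88 ± 0.106, adjusted p = 4.24e-05). Pde3b (-0.74 ± 0.135, adjusted p = 0.0011) and Pde1a (0.64 ± 0.151, adjusted p = 0.00622) had the larger values among the enzymes high in adipocytes. None of the 6 tested cyclases was called, the lowest adjusted p being 0.0515 for Adcy3. Adcy7, low in adipocytes, was at -0.36 (adjusted p = 0.127). Its ratio of IAT to EAT means in FPKM was 0.308 in adipocytes and 0.796 in SVCs. The share of Prkar2b in the regulatory sum, averaged over fractions, was 2.84 percentage points higher in IAT (exact permutation within fractions, two-sided, adjusted p = 0.02 over the 4 families). That of Adcy6 in the cyclase sum was lower in IAT, with a difference of -3.43 points (adjusted p = 0.02). The shares of Prkaca and Pde3b differed by 2.55 and -2.71 points between IAT and EAT (adjusted p = 0.08 and 0.115). That of Prkaca was 3.34 points without the third IAT SVC library (adjusted p = 0.0133) and 3.01 points without the second EAT SVC library (adjusted p = 0.0267).

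The other parts of the pathway are read against the 29.8% of all genes called higher and 53.9% lower in IAT adipocytes and the 31.1% and 52.7% in EAT adipocytes. Of the G protein alpha subunits that act on cyclase, 6 of 7 were tested, with 3 higher and 2 lower in IAT adipocytes and 2 higher and 3 lower in EAT adipocytes, each against SVCs. Gnai1, an inhibitory subunit, was at 96.5 ± 1.61 FPKM in IAT adipocytes and 173 ± 12.0 FPKM in EAT adipocytes, against 4.98 ± 0.164 FPKM in IAT SVCs and 7.44 ± 0.151 FPKM in EAT SVCs (SD, n = 3; adjusted p = 5.39e-14 in IAT and 1.86e-14 in EAT). It was also lower in IAT adipocytes than in EAT adipocytes (-0.83 ± 0.0644, adjusted p = 7.63e-07), whereas Gnai2 and Gnai3 were lower in adipocytes than in SVCs (-1.47 and -0.96 in IAT, -1.63 and -0.97 in EAT).

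Of 20 A-kinase anchoring proteins, 14 were tested, with 4 higher and 8 lower in IAT adipocytes and 5 higher and 6 lower in EAT adipocytes. These shares, 28.6% and 57.1% in IAT and 35.7% and 42.9% in EAT, lay near those of all genes. Ezr, which links membranes to actin, had the largest difference of those named by p (-4.28 in IAT and -4.08 in EAT), and Akap7 was higher in adipocytes (1.5 and 1.41). The kinase inhibitor Pkig was lower in adipocytes of both depots (-0.98 and -0.47), though in EAT it was at -0.09 and not called under median-of-ratios scaling. Of the cyclic AMP effectors other than the kinase, 4 of 9 were tested. Popdc2 was higher in adipocytes (2.47 and 1.80) and the exchange factor Rapgef4 lower (-1.95 and -0.97). The exchange factor Rapgef3 had a depot difference of -0.61 in adipocytes and 0.34 in SVCs, the second of which lost its call without the first IAT SVC library (0.31, adjusted p = 0.068) or without the first or the third EAT SVC library (0.30 and 0.29, adjusted p = 0.083 and 0.0837).

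CREB factors, their coactivators and salt-inducible kinases were lower in adipocytes for 10 of 11 tested genes (90.9%) and higher for 1 in each depot, with medians of -1.0 in IAT and -1.12 in EAT. Crem was at 11.6 FPKM in IAT adipocytes and 9.97 FPKM in EAT adipocytes, against 100 FPKM in IAT SVCs and 68.9 FPKM in EAT SVCs. Sik1 was at 11.5 and 9.46 FPKM in IAT and EAT adipocytes, against 77.3 and 79.8 FPKM in IAT and EAT SVCs. Of the genes that make and read cyclic GMP, 6 of 13 were tested, 6 were lower in IAT adipocytes and 5 in EAT adipocytes, and none was higher. Npr1, the receptor of atrial natriuretic peptide, was lower in adipocytes, with log2 differences of -2.64 in IAT and -3.16 in EAT. Of the regulators of cyclase and G protein signalling, 14 of 20 were tested, with 2 higher and 12 lower in IAT adipocytes and 0 higher and 11 lower in EAT adipocytes (85.7% and 78.6% lower in IAT and EAT). Arrb2, the arrestin that uncouples adrenergic receptors, was lower (-2.37 and -1.90). Of 7 phosphodiesterase relatives outside the symbol rule, 3 were tested, with 2 higher and 1 lower in adipocytes of each depot.

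The 10 members that were not tested were low throughout, and their highest value in any library was 1.05 FPKM (Pde11a in EAT SVCs). Adcy2 was at 0.0159 to 0.04375 FPKM in IAT adipocytes and 0.00818 to 0.0210 FPKM in EAT adipocytes, against 0.756 to 0.928 FPKM in IAT SVCs and 0.219 to 0.222 FPKM in EAT SVCs. Adcy8 ran opposite in SVCs, with 0.00887 to 0.0218 FPKM in IAT SVCs and 0.3245 to 0.465 FPKM in EAT SVCs. Adcy10, the soluble cyclase that bicarbonate activates, had every adipocyte value above every SVC value, at 0.168 to 0.236 FPKM in IAT adipocytes and 0.144 to 0.2185 FPKM in EAT adipocytes, against 0 to 0.00646 FPKM in IAT SVCs and 0.0106 to 0.0702 FPKM in EAT SVCs. Pde11a and Pde8b reached 0.845 to 1.05 and 0.592 to 0.724 FPKM in EAT SVCs, Adcy1 and Pde1c were at most at 0.226 and 0.148 FPKM, and the photoreceptor genes Pde6a, Pde6b and Pde6c at most at 0.0105, 0.0161 and 0.0141 FPKM.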

How the data were processed

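The deposited tables, 1 per library, hold FPKM per gene with lower and upper confidence bounds. TopHat and Cufflinks on GRCm38 (mm10) made them, per the submitters' processing notes; versions, strandedness and the annotation are not given in the sources used here. Features marked OK in all 12 tables were kept (9 were left out), and those with at least 1 FPKM in at least 3 libraries were tested. limma 3.58.1 (R 4.3.3) fitted 4 group means with eBayes(trend) to log2(FPKM + 1), with 5 contrasts and Benjamini-Hochberg adjustment over 13175 features. The test was checked on simulated data with known changes in a small part of the genes and no shift of all genes. That check does not cover the shift of all genes between the fractions. Fragments were estimated from the upper bound, taken as 2 SD above the value for counting error alone. The median distance of that bound in a library was 21.1 to 28.7% near 1 FPKM and 6.62 to 8.43% near 10 FPKM. Family shares are a member's FPKM over its family's sum in a library. They were compared with exact permutation tests of the labels within depot or fraction, adjusted over 4 families. In each family only the member with the highest mean FPKM over the 12 libraries was tested, a choice made from the same values. The members and the pathway and marker lists were chosen with earlier results of these data known. Values in every library are given for members with a group mean of at least 5 FPKM, or called at least 2-fold; of each pathway list at most 3 genes are named, those with the smallest p in the contrast described. Exon overlaps come from GENCODE vM21, whose annotation may differ from the one the tables were counted with.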

Additional observations from a re-analysis of the deposited data

Results flagged for a closer look

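For 10 members the difference between the depots was not the same in the 2 fractions by the test of the interaction itself, given here as the depot difference (IAT minus EAT) in adipocytes minus that in SVCs on the log2(FPKM + 1) scale. It was -1.42 for Pde7a, which was lower in IAT among adipocytes and higher in IAT among SVCs. It was -0.92 for Pde4d, higher in IAT in both fractions, and 0.88 for Pde7b, higher in IAT mainly among adipocytes. Pde3b had -0.74 and Prkar2b -0.27; both were higher in IAT SVCs than in EAT SVCs and were not called between the adipocyte groups. Pde1a had 0.64, Pde3a 0.58 and Pde10a 0.41, all 3 being lower in IAT SVCs than in EAT SVCs and not called between the adipocyte groups. For Pde3a the ratio of IAT to EAT means in FPKM was 0.495 in adipocytes and 0.497 in SVCs, and its value lost its call with a pseudocount of 0.1 (0.67, adjusted p = 0.267). Its adipocyte ratio rested on an estimated 1 to 14 fragments a library in EAT, and the adipocyte groups overlapped. Prkaca had 0.41 and Pde8a 0.80, both higher in IAT adipocytes than in EAT adipocytes and not called between the SVC groups. The values of Pde8a (adjusted p = 0.0464) and Prkar2b (adjusted p = 0.0245) were called under 6 and 13 of the 21 other settings tried, and that of Pde8a was 0.51 without the first EAT adipocyte library (adjusted p = 0.0261).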

How the results depend on the processing

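Of the 89 member differences called over the 5 contrasts, 70 kept their direction and call under all of up to 22 other settings, the rule of a log2 difference of at least 1 left aside. Over all 1938 such repeats 1838 kept both, 96 kept the direction and lost the call, and 4 changed sign: in IAT between the fractions, Adcy9 to 0.11 and Pde4a to 0.25 under quantile scaling, and Pde4d to 0.11 under median-of-ratios and 0.22 under quantile scaling. These 2 scalings remove the shift of all genes, by construction. Of the uncalled differences printed, Pde7b between the fractions of EAT turned to 0.15 under median-of-ratios and 0.61 under quantile scaling (adjusted p = 0.0632 and 1.81e-06), and Prkar2a between those of IAT to 0.10 under quantile scaling; the cause was not tested. In adipocytes, 8 members were called higher in IAT, against 5 without a filter on low values, 5 after rescaling to TPM, 4 with only the compared groups in the fit and 4 to 8 with 1 library left out; 4 were called lower, against 2 under median-of-ratios scaling, 2 under quantile scaling, 2 with only the compared groups and 2 to 8 with 1 library left out. In SVCs the 7 called higher in IAT became 4 after rescaling to TPM, and 3 in place of 6 had an interaction above 0 where a mean of at least 1 FPKM was required, with 25 members tested. With a log2 difference of at least 1 required, 10 members were lower in IAT adipocytes than in IAT SVCs, in EAT adipocytes 5 were higher and 11 lower, 1 higher and 0 lower in IAT than EAT adipocytes, 1 higher and 0 lower in IAT than EAT SVCs, and 0 and 1 in the interaction. The share of Prkaca between the depots was 2.13 to 3.34 percentage points with 1 library left out, with adjusted p = 0.0133 without the third IAT SVC library and 0.0267 without the second EAT SVC library. Leaving Pde6d out of the phosphodiesterase sum, an alternative chosen after seeing the data, changed no call of a share. Libraries share replicate numbers across groups, and same-numbered libraries deviated from their group means with correlations of -0.312 to 0.373, over 0.1 in 3 of 12 pairs. Between IAT and EAT adipocytes the correlation was 0.373 for number 1, -0.079 for number 2 and 0.349 for number 3. Deviations from means of 3 libraries cannot decide whether the numbers pair the libraries. With the replicate number as a block 2 of the 89 calls were lost, Pde8a in the interaction (0.80, adjusted p = 0.0648) and Prkacb between the adipocyte groups (-0.22, adjusted p = 0.0637). Of 27 differences of listed pathway genes named, 2 lost their call in some setting, Pkig in EAT under median-of-ratios scaling (-0.09) and Rapgef3 between the SVC groups (lowest 0.26, after rescaling to TPM). Depth limits the lowest members most, and the number of fragments under 1 FPKM varied between genes. Pde6a, Pde6b and Pde6c rested on an estimated 1 fragment at most in any library. Adcy7 in IAT adipocytes, also under 1 FPKM, rested on an estimated 39.8 to 67.8.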
